A study of Mus musculus with 8 samples.

Results

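The genes described here drive, carry out or brake cell division: the proliferation markers Mki67 and Top2a, cyclins and their kinase, the helicase and clamp of DNA replication, the suppliers of DNA building blocks, the machinery of mitosis, and 3 inhibitors of cyclin-dependent kinases (CDKs). They were chosen by symbol, and all 40 were found among the 31406 genes of the table that compares the treatments, and also among the 30302 genes held by both deposited tables. RNA was sequenced from 8 primary cultures of microglia, the macrophages that live in the brain, 4 per group, all wild type and all grown in culture for 15 days. All received lipopolysaccharide (LPS) and interferon-γ for 48 h. The antagonist group received SCH 58261, which blocks the adenosine A2A receptor, and the dual group received SCH 58261 together with 200 nM of 2-Cl-IB-MECA, which activates the adenosine A3 receptor, with additions at 24, 32 and 40 h of activation. Groups follow the sample titles. The treatment field of the labels goes against the title in all 8 samples, as it names 2-Cl-IB-MECA where the title has SCH 58261 alone and the reverse, so every direction below rests on the titles, which the names of the count columns share. The cultures came from the striatum of newborn C57/BL6 mice, and which culture came from which litter was not given, so p-values measure only the spread between these samples, which may be technical.

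Cells enter division when D-type cyclins with CDK4 or CDK6, and then E-type cyclins with CDK2, phosphorylate the retinoblastoma protein and release E2F factors, which switch on the genes of DNA synthesis. A later wave of genes, held back in resting cells by the DREAM complex and raised by FOXM1 and B-MYB, builds the spindle and carries the cell through mitosis. CDK inhibitors such as p21 stop the cycle. Microglia are long-lived cells that divide in response to colony-stimulating factors and to injury.

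The libraries held 32630602 to 45878639 counts, of which the 40 genes took 0.139 to 0.144%. The labelled cell type was checked against its markers. All 12 microglial markers were detected in these libraries, led per gene length by C1qa, a complement component, at 419.6 ± 42.9 FPKM (fragments per kilobase of gene, scaled to library size; SD, n = 8) and Tyrobp, a signalling adaptor, at 109.2 ± 9.02 FPKM. The 9 astrocyte markers were also all detected, led by Gfap at 389.8 ± 16.3 FPKM and Aqp4 at 256.2 ± 13.5 FPKM. In summed CPM (counts scaled to a common library size by TMM), astrocyte markers reached 6256 to 6542 in the antagonist group and 6352 to 6799 in the dual group, against 1231 to 1317 and 1180 to 1257 for microglial markers. The 8 fibroblast markers, led by Dcn and Col3a1, summed to 2448 to 2784 CPM and 2467 to 3150 CPM. The 9 oligodendrocyte lineage markers, led by Olig1 and Olig2, summed to 851 to 889.7 CPM and 802 to 853 CPM. Smaller sums came from ependymal (257 to 283 and 264 to 307), neuronal (139 to 148 and 140.1 to 157), mural (83.0 to 98.4 and 91.8 to 101) and endothelial markers (47.8 to 58.8 and 50.2 to 61.1, of which 5 of 6 were in the table), led by Foxj1 and Rsph1, Map2 and Gad1, Acta2 and Tagln, and Cdh5 and Kdr. Markers of other cell types than microglia were thus present in every library, and which cells held the transcripts of the cell cycle genes was not tested. In bulk RNA, fewer dividing cells and less RNA per cell cannot be told apart.

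Levels per gene length differed widely among the 40 genes. The brakes stood at the top: Cdkn2b, which encodes p15, an inhibitor of CDK4 and CDK6, had 87.3 ± 1.99 FPKM and Cdkn1a, which encodes p21, had 65.8 ± 1.67 FPKM (SD, n = 8). The D-type cyclins Ccnd2 and Ccnd1 followed with 40.8 ± 1.02 and 34.3 ± 2.56 FPKM. Cdkn2a, which encodes a further CDK inhibitor and, in another reading frame, an activator of p53, had 24.8 ± 1.10 FPKM, Pcna had 18.2 ± 0.759 FPKM and Ccnd3 had 11.4 ± 0.386 FPKM. Each of these 7 genes was separated from the next by ranges over the 8 libraries that did not overlap. Below them the ranges of nearly all neighbours overlapped, from Mcm7 at 6.59 ± 0.178 FPKM through Mki67 at 1.66 ± 0.136 FPKM down to Kif23 at 0.379 ± 0.0486 FPKM. The exceptions were Mcm4, which did not overlap E2f1, and Cenpf, which did not overlap Kif23. The 3 D-type cyclins and 3 inhibitors together held 72.9 to 74.3% of the summed CPM of the 40 genes in each library. The level of Kif11 rests on a gene length in the table of 4819 bases, shorter than the 7461 exonic bases of GENCODE M21.

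**Figure D1:**
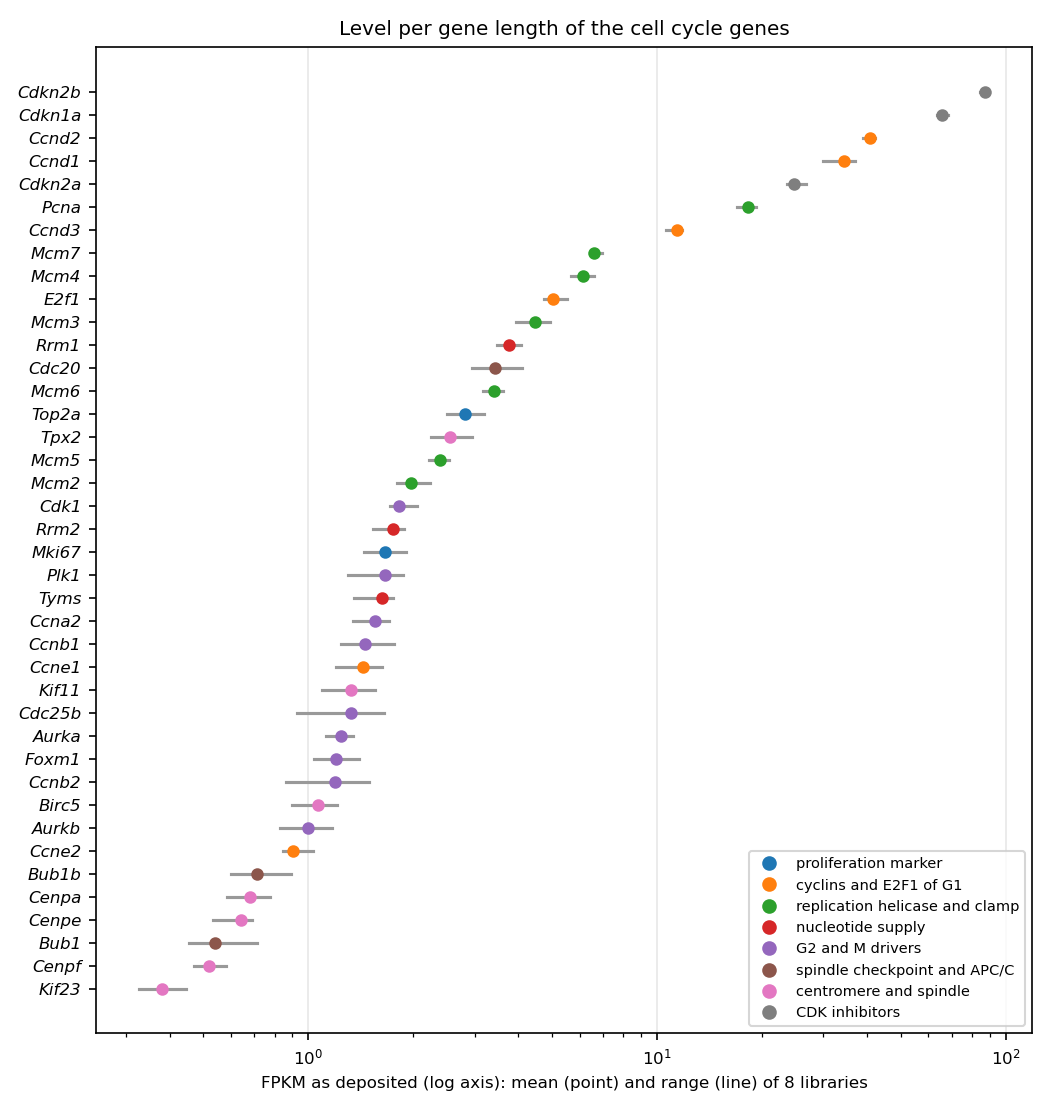
Level of each of the 40 genes in FPKM as deposited, on a log axis; points are means and lines are the ranges over 8 libraries, coloured by role. The inhibitors, the D-type cyclins and Pcna take the first 7 places, with Pcna above Ccnd3, and the levels run from 87.3 FPKM for Cdkn2b to 0.379 FPKM for Kif23.

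The comparison of the dual with the antagonist group asks what the A3 receptor agonist adds to blockade of the A2A receptor. All 40 genes passed the low-count filter, and none of them was called at an adjusted p under 0.05 (edgeR quasi-likelihood test, Benjamini-Hochberg adjustment over 18756 genes), where 39 genes (0.208%) were called in all. DESeq2 called 1 of the 40, Ccnd1, and 417 of the 18756 genes. It gave no adjusted p for some of the 40, which it could therefore not call. Mki67, Ccne1, Ccne2, E2f1 and Mcm2 were among these. At an unadjusted p under 0.05 there were 2 of the 40, Ccnd1 and Mcm3, both with lower means in the dual group, beside 12.8% of all genes in either direction and 6.81% in that direction, so the share of the 40 was not above the background. Of the 40 log2 fold changes 27 were below 0 and 13 above, with a median of -0.034, while over all genes 48.5% were below 0 and the median was 0.0038. The estimates ran from -0.21 for Aurkb to 0.16 for Cdc25b. The 95% intervals of all 40 genes lay inside a 1.5-fold difference in either direction, and those of 26 lay inside 1.2-fold. The same held for 76.8% and 55.4% of all genes tested. The widest interval ends over the 40 genes were folds of 0.699 for Ccnb2 and 1.36 for Cdc25b, so a 1.5-fold difference lies outside the interval of each gene, while smaller ones remain within it. The CPM of the groups did not overlap for 3 of the 40, Ccnd1, Mcm6 and Cenpe, beside 7.42% of all genes.

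**Figure D2:**
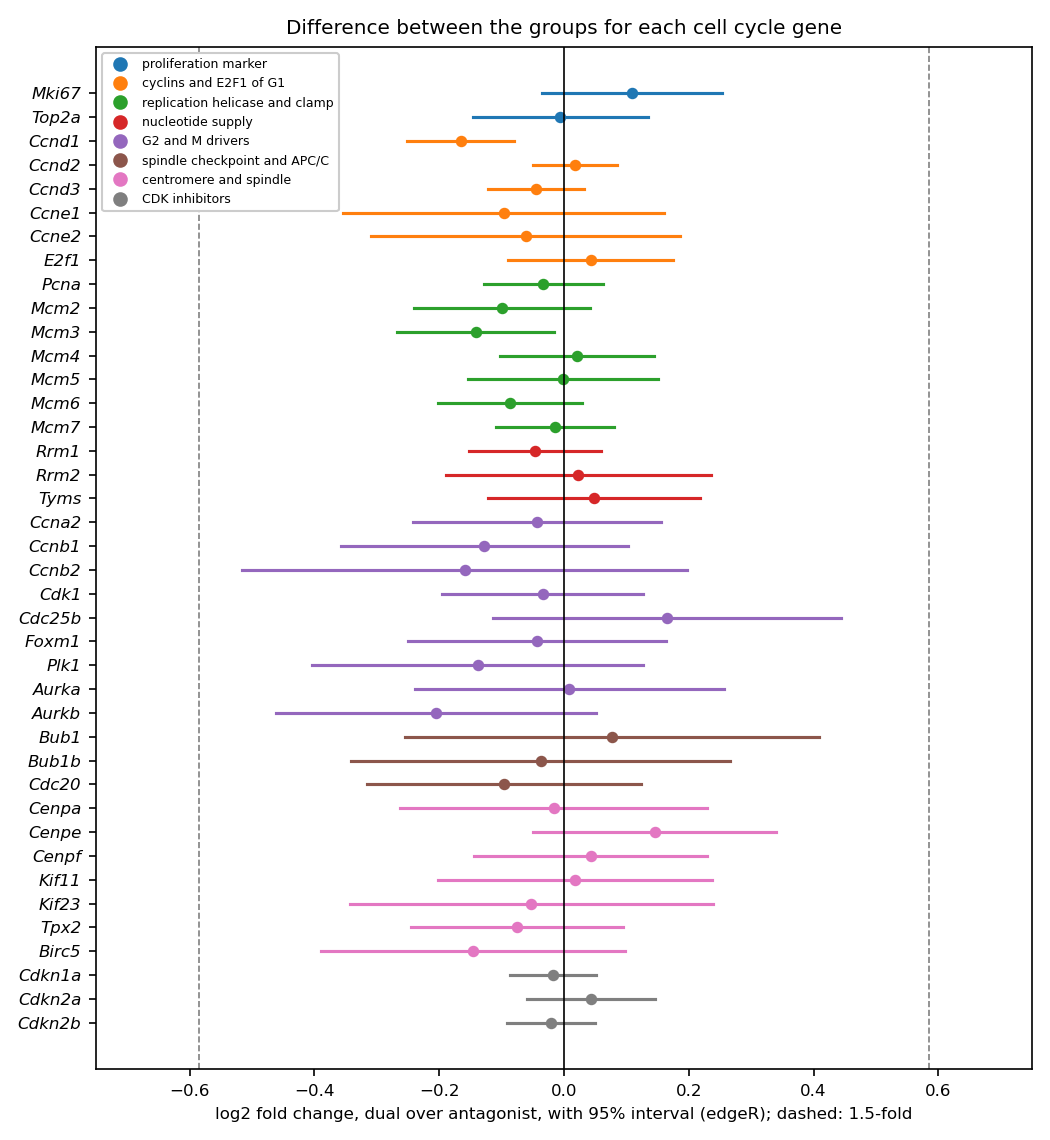
Fitted log2 fold change of each gene, dual over antagonist, with its 95% interval (edgeR, n = 4 per group), by role. All intervals lie between the dashed lines at 1.5-fold, and those of Ccnd1 and Mcm3 do not reach 0.

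Mki67, which encodes the Ki-67 protein found in nuclei of dividing cells, had 17.2, 16.3, 14.6 and 16.5 CPM in antagonist replicates 1 to 4 and 19.3, 17.9, 16.0 and 16.6 CPM in dual replicates 1 to 4. The groups overlapped, with dual replicates 1 and 2 above all antagonist libraries. Its log2 fold change was 0.11 ± 0.069 (SE), with a 95% interval from -0.035 to 0.25 and an adjusted p of 0.534 (edgeR). Top2a, the topoisomerase that untangles replicated chromosomes, had 25.6 ± 1.69 CPM (SD, n = 4) in the antagonist group and 25.6 ± 2.62 CPM in the dual group, a log2 fold change of -0.0059 ± 0.067.

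Among the cyclins of G1, Ccnd1 encodes cyclin D1, the partner of CDK4 and CDK6 that links growth signals to the cycle, and lies at chr7:144929931-144939925 (GRCm38, minus strand). It had 171, 174, 168 and 176 CPM in antagonist replicates 1 to 4 and 166, 155, 152 and 142 CPM in dual replicates 1 to 4. Every dual library lay below every antagonist library, and dual replicate 1 was the closest to them. Mean levels were 172 ± 3.53 and 154 ± 9.79 CPM (SD over 4 libraries). The estimate on the log2 scale was -0.17 with an SE of 0.041, and the 95% interval of the fold ran from 0.840 to 0.946. The unadjusted p was 0.000739 and the adjusted p 0.0866 over all genes (edgeR). Over 13 alternative settings the adjusted p ranged from 0.0073 to 0.256; it was under 0.05 with DESeq2 (0.0074), with no low-count filter (0.0073) and without dual replicate 1 (0.045). Exons of the gene Oraov1 on the opposite strand cover 1100 of its 4709 exonic bases, and whether counting used the strand was not stated. Oraov1 had 24.0 ± 1.02 CPM in the antagonist group and 25.05 ± 1.21 CPM in the dual group, with a log2 fold change of 0.060 ± 0.052 (adjusted p = 0.683, edgeR), so its estimate lay on the other side of 0.

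Cdk4, a partner kinase of the D-type cyclins, was the gene with the smallest p in a list of 20 other genes of CDK control. Of the 20 log2 fold changes in that list 12 were above 0 and 8 below, with a median of 0.0095. Cdk4 had 138, 143, 137 and 140.1 CPM in antagonist replicates 1 to 4 and 129.6, 129.5, 126 and 120.5 CPM in dual replicates 1 to 4. As for Ccnd1, the groups did not overlap and dual replicate 4 was the lowest library. The estimate on the log2 scale was -0.14 ± 0.035 and its adjusted p was 0.0835 by edgeR, against 0.0038 with DESeq2 and 0.028 with no low-count filter.

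The other genes of this role stayed closer together or varied more between libraries. Ccnd2 had log2 fold changes of 0.018 ± 0.032 and Ccnd3 of -0.045 ± 0.037 (SE), and the 95% interval of Ccnd2 ended at folds of 0.966 and 1.06. The E-type cyclins, which act with CDK2 at the start of DNA synthesis, were scarce, with 3.98 ± 0.537 and 3.73 ± 0.365 CPM for Ccne1 and 3.24 ± 0.289 and 3.10 ± 0.115 CPM for Ccne2 in the antagonist and dual groups. E2f1, a transcription factor of DNA synthesis genes, had 15.8 ± 0.877 and 16.3 ± 0.972 CPM.

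**Figure D3:**
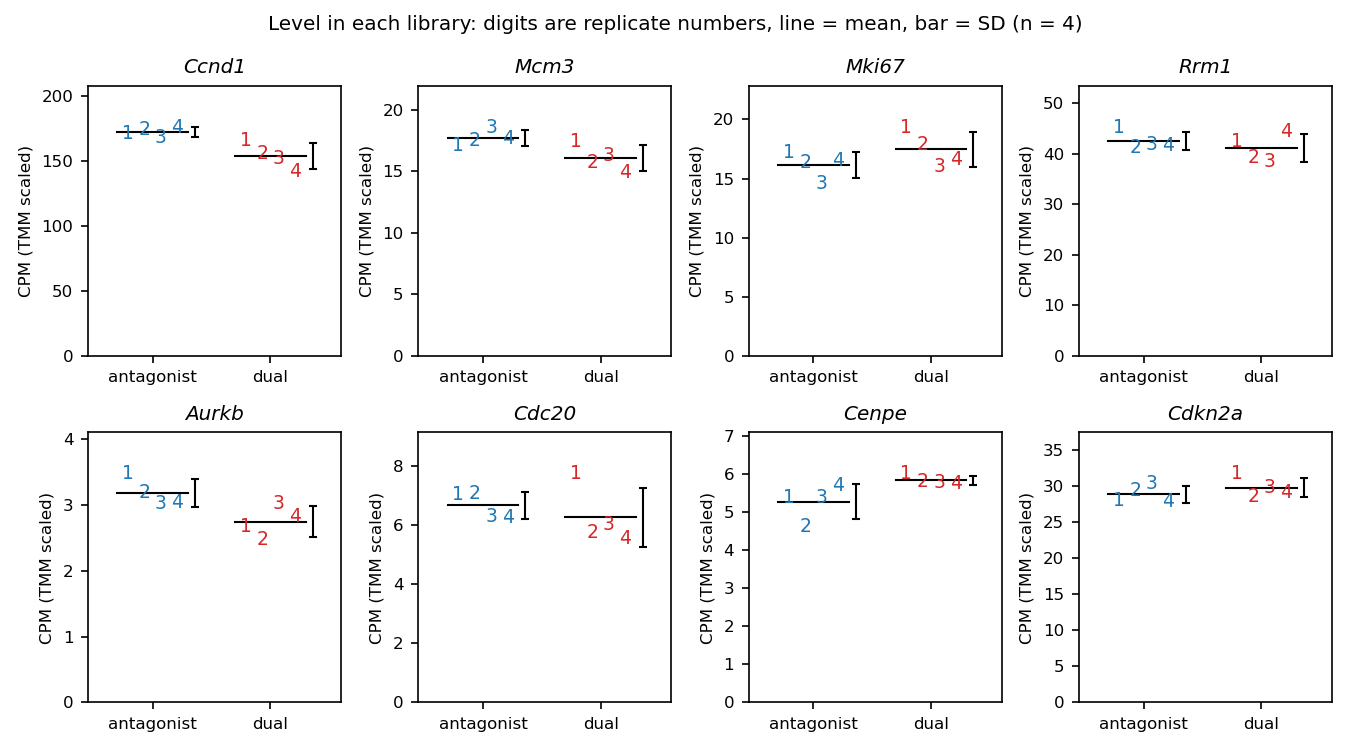
CPM (TMM scaled, axes from 0) in each library for 2 genes with an unadjusted p under 0.05, Ccnd1 and Mcm3, and for the gene with the smallest p in each other role; digits are replicate numbers, lines are means and bars are SDs (n = 4). The groups do not overlap for Ccnd1, from 142 to 166 CPM in the dual group and from 168 to 176 CPM in the antagonist group, or for Cenpe.

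The replication genes encode the MCM2 to MCM7 helicase, which opens the DNA double helix, and PCNA, the clamp that holds the polymerase on DNA. Mcm3, at chr1:20802968-20820312 (GRCm38, minus strand), had 17.1, 17.5, 18.6 and 17.7 CPM in antagonist replicates 1 to 4 and 17.4, 15.7, 16.3 and 14.9 CPM in dual replicates 1 to 4. Dual replicate 1 lay within the antagonist group and the other 3 dual libraries lay below it. The log2 fold change was -0.14 ± 0.060, the unadjusted p 0.0301 and the adjusted p 0.323 (edgeR). Mcm6 had 16.5 ± 0.340 CPM in the antagonist group and 15.5 ± 0.415 CPM in the dual group, without overlap, and a log2 fold change of -0.086 ± 0.055 with an adjusted p of 0.544 (edgeR). The remaining subunits, which act in the same ring, did not share one direction: Mcm2 had a log2 fold change of -0.099 ± 0.067, Mcm7 of -0.015 ± 0.045, Mcm5 of -0.0012 ± 0.072 and Mcm4 of 0.021 ± 0.059, and the sign for Mcm4, Mcm5 and Mcm7 turned when single libraries were left out and, for Mcm5, under scaling by total counts. Pcna had 44.5 ± 1.83 and 43.6 ± 1.98 CPM, a log2 fold change of -0.033 ± 0.045. Counts of Mcm7 and Pcna are uncertain, since 26.8% and 23.3% of their 31-base words occur in other genes, mainly the pseudogenes Gm5487 and Pcna-ps2.

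Promoter letters were compared between the genes of DNA synthesis and those of mitosis. Of the 40 genes, 32 had a promoter window in the RefSeq table (GRCm38.p6), which spans 250 bases before to 50 after the start. The 8 without a window were Ccnd1, Ccnd2, Ccne2, Mcm4, Ccna2, Foxm1, Aurkb and Tpx2. Both strands were searched for 4 E2F spellings (TTTGGCGC, TTTCCCGC, TTTCGCGC and TTTGCCGC), for the CHR element (TTTGAA), at which DREAM, B-MYB and FOXM1 complexes bind, for the CCAAT box (CCAAT), and for the cyclic AMP response element (TGACGTCA). An E2F spelling was found in 6 of 32 genes, against 2.60% of 27025 genes. These were 4 of the 6 replication genes with a window (the helicase subunits Mcm3, Mcm5, Mcm6 and Mcm7), Cdk1 and Cdkn2a. TTTGAA was found in 14 of 32 genes, against 20.2% of all genes. Of these, 12 were among the proliferation markers and the genes of G2 and mitosis. By role, of genes with a window, it was 2 of 2 proliferation markers and 4 of 6 drivers of G2 and mitosis. It was 2 of 3 checkpoint genes and 4 of 6 centromere and spindle genes. CCAAT was found in 26 of 32 genes against 41.1%, and TGACGTCA in 3 of 32 (Cdkn2b, Cenpe and Mcm5) against 2.03%. A match describes these letters only and is not evidence of binding. The following 3 windows, all on the minus strand and written 5′ to 3′, are shown because they hold E2F spellings without TTTGAA, both, or TTTGAA without an E2F spelling, with capitals for matches of E2F, CHR and CCAAT, none of which overlap each other in these windows.
Mcm3, chr1:20820263-20820562: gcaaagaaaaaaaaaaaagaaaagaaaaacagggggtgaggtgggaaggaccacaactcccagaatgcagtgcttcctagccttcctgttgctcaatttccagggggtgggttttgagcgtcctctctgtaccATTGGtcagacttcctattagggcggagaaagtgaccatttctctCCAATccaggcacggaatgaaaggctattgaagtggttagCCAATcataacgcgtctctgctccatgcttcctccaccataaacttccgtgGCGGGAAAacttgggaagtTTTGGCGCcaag
Cdk1, chr10:69352863-69353162: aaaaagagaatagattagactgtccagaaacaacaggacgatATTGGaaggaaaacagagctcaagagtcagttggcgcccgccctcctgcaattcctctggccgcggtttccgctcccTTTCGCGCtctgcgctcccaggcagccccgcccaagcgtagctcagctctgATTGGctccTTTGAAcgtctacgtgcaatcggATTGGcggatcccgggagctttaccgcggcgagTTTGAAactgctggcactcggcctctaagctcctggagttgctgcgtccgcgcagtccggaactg
Ccnb2, chr9:70421505-70421804: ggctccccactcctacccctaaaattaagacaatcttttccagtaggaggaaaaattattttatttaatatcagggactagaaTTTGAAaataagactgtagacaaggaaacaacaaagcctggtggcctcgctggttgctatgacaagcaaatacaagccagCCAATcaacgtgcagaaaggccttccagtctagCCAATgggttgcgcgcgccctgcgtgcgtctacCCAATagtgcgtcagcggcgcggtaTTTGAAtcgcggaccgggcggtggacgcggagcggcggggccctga
Mcm3 holds 2 E2F spellings just after its start, Cdk1 holds 1 E2F spelling before 2 TTTGAA elements, and Ccnb2 holds 3 CCAAT boxes between 2 TTTGAA elements. The log2 fold changes of these 3 genes were -0.14, -0.034 and -0.16, all with adjusted p-values over 0.05.

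Nucleotide supply is set by ribonucleotide reductase, whose subunits are encoded by Rrm1 and Rrm2, and by thymidylate synthase, encoded by Tyms. Rrm1 had 45.3, 41.3, 41.9 and 41.7 CPM in antagonist replicates 1 to 4 and 42.4, 39.3, 38.5 and 44.5 CPM in dual replicates 1 to 4. The groups overlapped, and antagonist replicate 1 and dual replicate 4 were the highest libraries. The log2 fold changes were -0.047 ± 0.050 for Rrm1, 0.023 ± 0.10 for Rrm2 and 0.048 ± 0.081 for Tyms, with adjusted p-values from 0.756 to 0.955 (edgeR), and those of Rrm2 and Tyms changed sign when single libraries were left out.

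The drivers of G2 and mitosis gave the largest estimates of the 40 genes in either direction, and Ccnb2 among them had the widest interval. Aurkb, the kinase of the chromosomal passenger complex that corrects attachments of chromosomes to the spindle, had 3.47, 3.19, 3.02 and 3.04 CPM in antagonist replicates 1 to 4 and 2.67, 2.47, 3.03 and 2.82 CPM in dual replicates 1 to 4. The groups overlapped through dual replicate 3 alone. Its log2 fold change was -0.21 ± 0.12, with an interval from -0.46 to 0.052 and an adjusted p of 0.513 (edgeR). Cdc25b, the phosphatase that activates CDK1, had 4.68 ± 0.899 and 5.29 ± 0.727 CPM, a log2 fold change of 0.16 ± 0.13. Cdk1 itself, the kinase of mitosis, had 9.17 ± 0.686 and 8.97 ± 0.359 CPM. Its cyclins Ccna2, Ccnb1 and Ccnb2 had log2 fold changes of -0.043 ± 0.095, -0.13 ± 0.11 and -0.16 ± 0.17, and counts of Ccnb1 are uncertain because 27.7% of its words occur in other genes, mainly its own pseudogene. The log2 fold changes of Foxm1, a transcription factor of this wave, of Plk1, a kinase of mitotic entry, and of Aurka, a kinase of spindle poles, were -0.043 ± 0.099, -0.14 ± 0.13 and 0.0087 ± 0.12. None of the 9 genes had an adjusted p under 0.5, and the signs of Ccna2, Cdk1, Foxm1 and Aurka turned when single libraries were left out.

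The spindle checkpoint holds cells before chromosomes part, and CDC20 activates the ligase that ends this hold. Cdc20 had 7.03, 7.06, 6.27 and 6.25 CPM in antagonist replicates 1 to 4 and 7.72, 5.73, 6.01 and 5.55 CPM in dual replicates 1 to 4. Dual replicate 1 was above every antagonist library and the other 3 dual libraries were below every one. The log2 fold change was -0.096 ± 0.10 (adjusted p = 0.760, edgeR), and 25.5% of the words of Cdc20 occur in other genes. The checkpoint kinases Bub1 and Bub1b had log2 fold changes of 0.077 ± 0.16 and -0.038 ± 0.14, and either sign turned when single libraries were left out.

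Of the centromere and spindle genes, Cenpe encodes a motor that carries chromosomes to the middle of the spindle. It had 5.39, 4.62, 5.38 and 5.70 CPM in antagonist replicates 1 to 4 and 6.01, 5.81, 5.77 and 5.75 CPM in dual replicates 1 to 4. Every dual library lay above every antagonist library, and antagonist replicate 2 was the lowest. The log2 fold change was 0.15 ± 0.093, with an unadjusted p of 0.134 and an adjusted p of 0.544 (edgeR). Birc5, which encodes survivin of the same passenger complex as Aurkb, had 3.83 ± 0.339 and 3.46 ± 0.305 CPM, a log2 fold change of -0.15 ± 0.12. The estimates for Cenpa and Cenpf, of the centromere, for the motors Kif11 and Kif23, and for Tpx2, which helps to build the spindle, lay between -0.075 ± 0.081 (Tpx2) and 0.043 ± 0.089 (Cenpf).

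The CDK inhibitors had narrow intervals around 0. Cdkn2a had 27.9, 29.3, 30.3 and 27.8 CPM in antagonist replicates 1 to 4 and 31.7, 28.5, 29.7 and 29.0 CPM in dual replicates 1 to 4. The groups overlapped, with dual replicate 1 the highest library, and the log2 fold change was 0.044 ± 0.049 (adjusted p = 0.769, edgeR). Gene-level counts do not separate the reading frames of Cdkn2a. Cdkn1a had 237 ± 6.34 and 234 ± 5.75 CPM and Cdkn2b 123 ± 2.65 and 121 ± 2.58 CPM, and their 95% intervals ran from folds of 0.942 to 1.04 and from 0.939 to 1.03.

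Read by library, dual replicate 1 differed from the other dual libraries. For 34 genes, the 40 without the D-type cyclins and inhibitors, the summed level was 375 to 379.6 CPM in the antagonist libraries and 390, 368, 355 and 371 CPM in dual replicates 1 to 4. Dual replicate 1 was thus the highest library of all 8 and dual replicate 3 the lowest, and dual replicates 2, 3 and 4 lay below every antagonist library. In dual replicate 1, 24 of the 34 genes lay above their mean over all 8 libraries, in dual replicates 2, 3 and 4 it was 12, 8 and 13, and in the antagonist libraries 19 to 22. The share of all genes above their mean in each library was not computed, so whether these counts are particular to the 34 genes was not tested. Dual replicate 1 was also the library with the fewest counts, 32630602. The median log2 fold change of the 40 genes was -0.063 without dual replicate 1 and -0.011 without dual replicate 3, so its size depends on which of these libraries is kept. C1qa, a microglial marker, had 476 ± 29.6 CPM in the antagonist group and 403 ± 11.6 CPM in the dual group and fell (log2 fold change -0.24 ± 0.040, adjusted p = 0.0240, edgeR). It was the only one of 12 microglial markers called by edgeR (4 were by DESeq2, beside 417 of 18756 genes). Of the 12 estimates 7 were below 0 and 5 above, with a median of -0.021. Among those above was Csf1r (0.11 ± 0.034, adjusted p 0.171, edgeR). The adjusted p of C1qa was 0.0648, 0.0791 and 0.0932 without antagonist replicates 2, 3 and 4 and 0.0650 without dual replicate 3 (edgeR). Neither tool called an astrocyte or fibroblast marker (3 of 9 and 3 of 8 had an unadjusted p under 0.05 by edgeR, beside 12.8% of all genes, as did 4 of 12 microglial markers), with median log2 fold changes of 0.031 over 9 and 0.13 over 8 genes, and all 8 fibroblast estimates were above 0. So were all 5 ependymal and all 4 tested mural estimates, 3 of 4 endothelial and 3 of 5 neuronal ones, while 7 of 9 oligodendrocyte lineage estimates were below 0, of which list DESeq2 called 1 gene and edgeR 0 (2 of 9 at an unadjusted p under 0.05 by edgeR). The part of these markers in the values of the cell cycle genes was not tested.

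**Figure D4:**
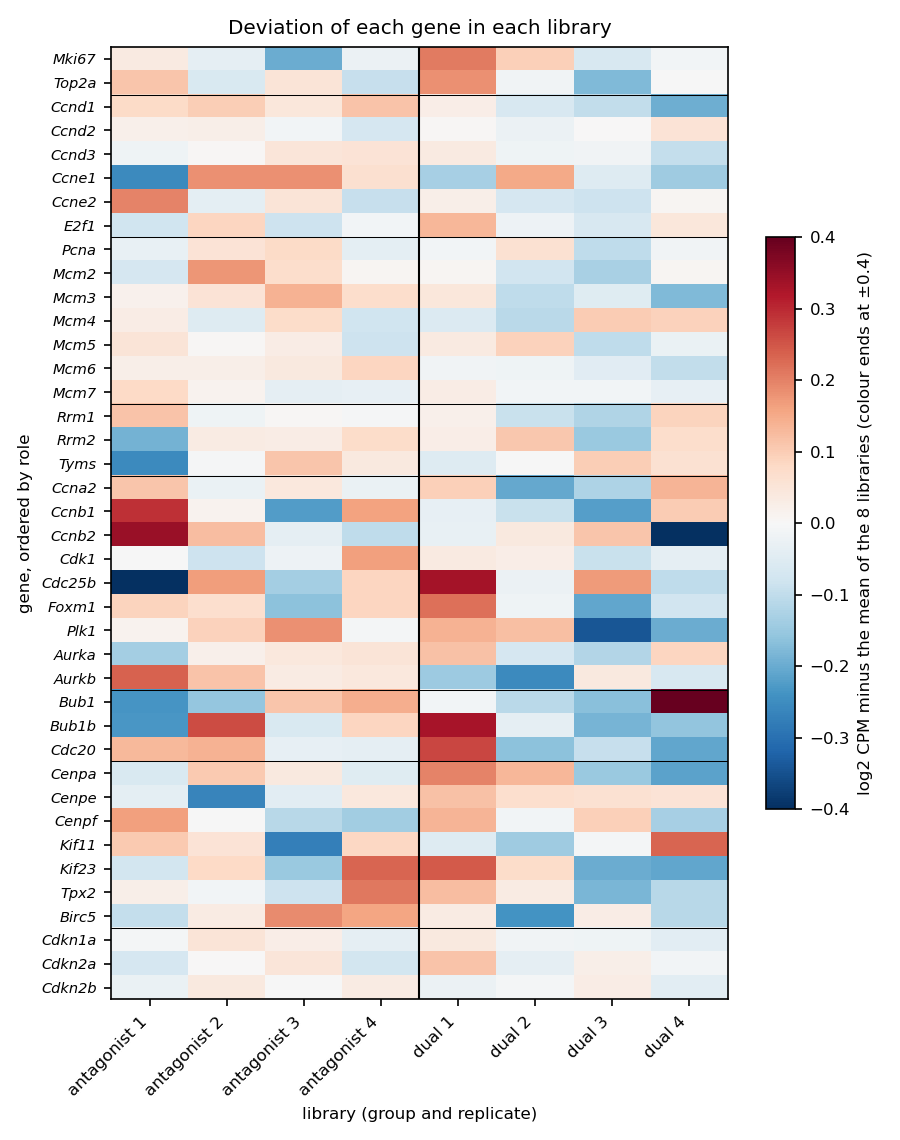
Deviation of log2 CPM of each gene (rows, ordered by role) from its mean over the 8 libraries (columns); colour ends at ±0.4. Dual replicate 1 has the most genes above their mean and dual replicate 3 the fewest, 24 and 8 of the 34 genes outside the D-type cyclins and inhibitors.

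Other genes of the same processes were read from 7 lists with 168 genes, of which edgeR called 0 and DESeq2 called 2, Cdk4 and Csf1r, with 17 at an unadjusted p under 0.05 by edgeR, a share below the 12.8% of all genes tested. The genes with the smallest p of each list are therefore named with their log2 fold changes as a description. Of 42 genes of replication origins and forks, 2 had an unadjusted p under 0.05, both with estimates above 0: Orc4, of the origin recognition complex, with a log2 fold change of 0.13 ± 0.052, and Cdc7, the kinase that activates the helicase, with 0.28 ± 0.12. Their direction was opposite to that of Mcm3. Of 14 genes of nucleotide synthesis, 2 did, Impdh2 of guanine nucleotide synthesis (-0.11 ± 0.038) and Shmt2 of one-carbon metabolism (-0.13 ± 0.056). Of 49 further genes of mitosis, 6 did, near the share of all genes, 1 with an estimate above 0, Aspm of the spindle poles (0.20 ± 0.093), and 5 below 0, led by the kinase Melk (-0.27 ± 0.080, adjusted p 0.145 by edgeR and 0.043 with no low-count filter) and by Cks1b, a CDK subunit (-0.19 ± 0.066). Over the 13 alternative settings the adjusted p of Melk reached 0.403. The median over these 49 genes was 0.0051, with 25 above and 24 below 0. Of 20 genes of CDK control only Cdk4 was past this mark. Of 18 genes of the retinoblastoma, E2F and DREAM group, 2 did: E2f7, a repressor of E2F targets, with 1.07 ± 0.218 CPM in the antagonist group and 1.58 ± 0.113 CPM in the dual group (log2 fold change 0.57 ± 0.19, adjusted p 0.192 by edgeR), and Mybl1 (0.14 ± 0.052, adjusted p 0.255 by edgeR). Of 14 targets of p53, 1 did, Bax of the cell death pathway (-0.098 ± 0.037, adjusted p 0.265 by edgeR). Of 11 growth signals of microglia, 3 did: the receptor Csf1r (0.11 ± 0.034, adjusted p 0.171 with edgeR and 0.046 with DESeq2), its ligand Csf1 (-0.10 ± 0.035, adjusted p 0.196 by edgeR) and the cytokine Csf2 (-0.45 ± 0.16, adjusted p 0.212 by edgeR). That of Csf1r reached 0.394 over the 13 alternative settings. By edgeR the smallest adjusted p over the 7 lists was that of Cdk4.

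The study also set the antagonist group against activated cells that received vehicle. The libraries of that control are not samples of this series and were not used singly. Only the authors' deposited means of normalized counts are given, which carry no SD, n or test here, and treatment and series cannot be told apart in them. Of the 40 genes, 35 had a lower mean with the antagonist than in the control and 5 a higher one, with a median ratio of 0.852. Over 18860 genes whose means averaged at least 10, 48.0% lay under 1 and the median was 1.01. All of the proliferation markers, the nucleotide supply genes, the checkpoint genes and the centromere and spindle genes lay under 1, with Mki67 at 0.692, Top2a at 0.764 and Rrm2 at 0.656. Under 1/1.5 there were 6 of the 40, Cdc25b (0.465), Ccnb2 (0.619), Kif23 (0.624), Rrm2, Cdc20 (0.657) and Cenpe (0.664), beside 10.9% of all genes, and Mcm6 lay just outside at 0.668. The 5 ratios over 1 were those of Cdkn2b (1.31), Ccnd1 (1.29), Pcna (1.07), Aurka (1.01) and Cdkn2a (1.00), while p21's gene Cdkn1a stood at 0.833. Of the 49 further genes of mitosis, 43 lay under 1 (median 0.813), and of 42 genes of origins and forks 25 did (median 0.943). It was 14 of 20 genes of CDK control (median 0.964), 9 of 14 targets of p53 (0.908) and 8 of 11 growth signals of microglia (0.959). The other lists did not lean that way, with 7 of 14 genes of nucleotide synthesis (0.989) and 7 of 18 genes of the retinoblastoma, E2F and DREAM group (1.04) under 1.

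**Figure D5:**
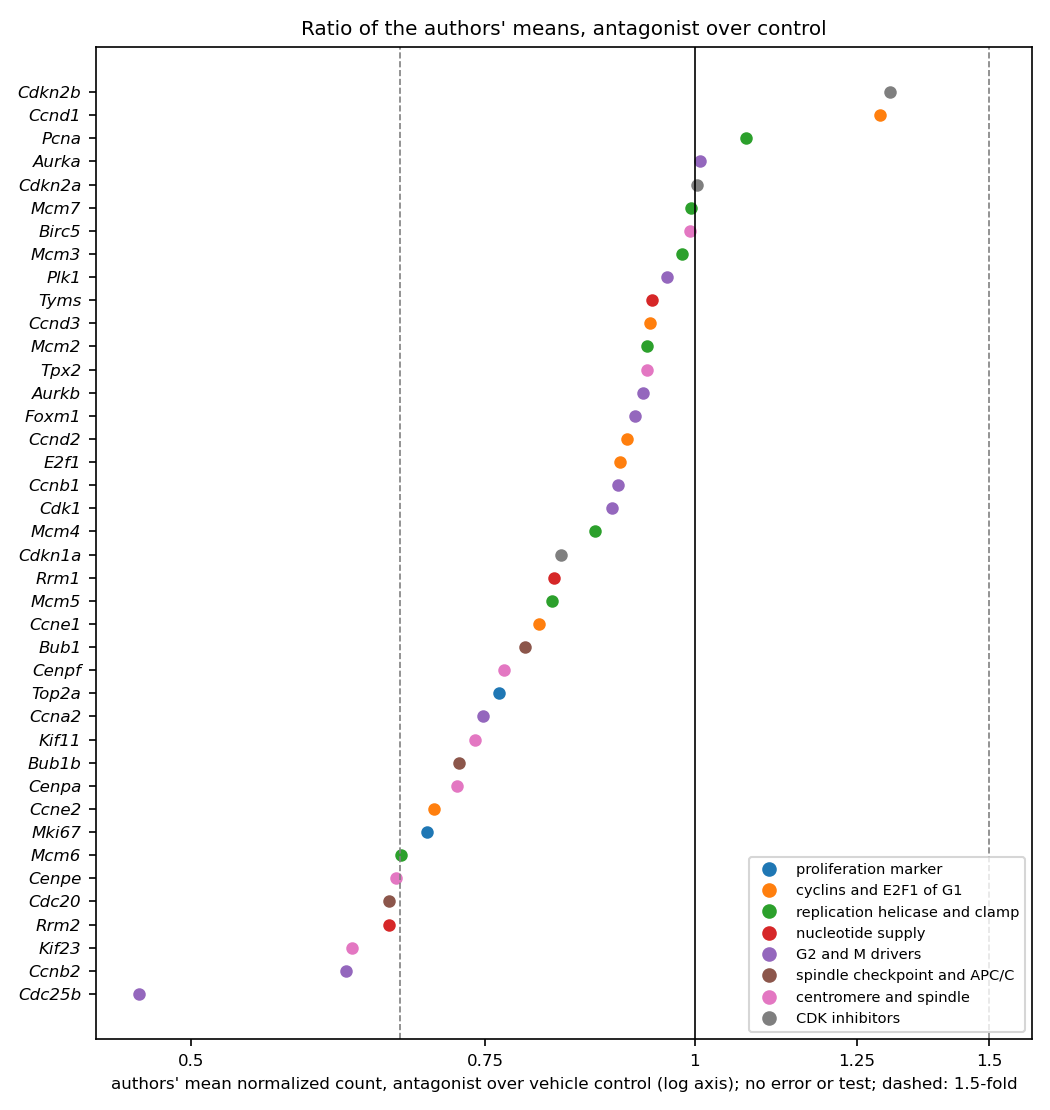
Ratio of the authors' mean normalized counts, antagonist over vehicle control, for each of the 40 genes (log axis, no error or test); dashed lines mark 1.5-fold. The ratios run from 0.465 for Cdc25b to 1.31 for Cdkn2b, and 35 of 40 lie under 1.

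Markers of other cells also differed in the authors' means. All 8 fibroblast markers had ratios under 1, with a median of 0.268, while 8 of 9 astrocyte markers and 8 of 12 microglial markers lay over 1, with medians of 1.201 and 1.10. Of the other markers whose means averaged at least 10, 4 of 4 mural, 5 of 6 neuronal and 3 of 4 endothelial ones lay under 1. Their medians were 0.761, 0.760 and 0.735. Over 1 were 6 of 9 oligodendrocyte lineage and 3 of 5 ependymal markers, with medians of 1.205 and 1.07. The part of these cells in the ratios of the cell cycle genes was not tested. Both comparisons share the antagonist libraries. Side by side, the authors' ratio of antagonist over control and the fitted fold of dual over antagonist are given for the 8 genes shown by library. They were 0.692 and 1.08 for Mki67, 1.29 and 0.891 for Ccnd1, 0.982 and 0.906 for Mcm3, and 0.824 and 0.968 for Rrm1. For the others they were 0.931 and 0.868 for Aurkb, 0.657 and 0.935 for Cdc20, 0.664 and 1.11 for Cenpe, and 1.00 and 1.03 for Cdkn2a.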

How the data were processed

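Counts per gene in the deposited tables were made by the authors with HISAT2 and featureCounts 1.5.0-p3 on mm10 (tool version and build per the labels) and are neither normalized nor pooled. FPKM as deposited by the authors divide them by gene length and library total. The means used for the antagonist and vehicle control are the authors' deposited signal, normalized counts averaged per group. Each table also lists log2 fold changes with raw and adjusted p-values from the authors' own comparisons. These columns, and 9 per-sample columns of 3 control libraries outside the series, were not used.

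In R 4.3.3, genes were filtered with filterByExpr (minimum count 10), scaled by TMM and tested with edgeR 4.0.16 (quasi-likelihood F test, no covariates, two-sided, Benjamini-Hochberg adjustment over 18756 genes, threshold 0.05). Standard errors were derived from F, and 95% intervals from t with a median of 18.1 degrees of freedom. The test was checked on simulated counts. DESeq2 1.42.0, other scalings, no filter, a replicate block, a fold criterion of 1.5 and leaving out each library were the alternatives. Library totals ranged from 32630602 to 45878639 counts, and the common biological coefficient of variation was 5.28%. Intervals and SDs cover these samples only.

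The 40 genes, their roles, and the pathway and marker lists were chosen with earlier results of these data known. Values in every library are given for members with an unadjusted p under 0.05 and, in each role with none, for the member with the smallest p. Of each pathway list the 2 genes with the smallest p in each direction are named, and of each marker list the 2 with the highest FPKM. Oraov1 was named for its overlap with Ccnd1, and Mcm6 and other members are named by role. All 40 genes had the same coordinates in GENCODE M21 (GRCm38), as did 97.4% of 31358 genes with an identifier there. Shared sequence is the share of a gene's 31-base words that occur in another gene.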

Additional observations from a re-analysis of the deposited data

Results flagged for a closer look

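In 3 of 80 groups of 4 libraries (40 genes in both groups), 1 library stood apart from the other 3 by Dixon's criterion, which chance flags in about 1 of 20 groups. Rrm1 had 45.3 CPM in antagonist replicate 1, where the other antagonist libraries had 41.3 to 41.9 CPM. Foxm1 had 6.20 CPM in antagonist replicate 3, where the others had 7.28 to 7.39 CPM, and Kif11 had 5.31 CPM in the same library, where the others had 6.66 to 6.90 CPM. The same library did not stand apart for the other 38 genes.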

How the results depend on the processing

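The count of called genes depended strongly on the method. It was 39 in the comparison as reported, 417 with DESeq2, 366 with no low-count filter, 17 with the replicate block, 1 when a fold over 1.5 was also required, and 0 to 172 when single libraries were left out (0 without antagonist replicate 4 or dual replicate 3, and 172 without antagonist replicate 1). Among the 40 genes the count was 0 as reported and 1 with no low-count filter. With DESeq2, which gave no adjusted p for some of the 40, such as Mki67, it was 1. It was 0 to 1 when single libraries were left out (1 without dual replicate 1), and the gene was Ccnd1 each time. In other settings the count was 0. The cause was not tested. The median log2 fold change stayed below 0 in all alternatives, from -0.063 to -0.011. Samples with the same replicate number did not deviate together (correlations -0.073, -0.044, -0.060 and -0.138), so the numbers were not taken as pairs. Between different numbers the correlations ran from -0.073 to 0.147, and whether libraries were linked across groups in another order was not tested. With the replicate block the adjusted p of Ccnd1 was 0.159 (edgeR).

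Of the 40 log2 fold changes, 24 kept their sign in all 13 alternatives and 16, none larger than 0.077 in size, did not. Leaving out single libraries, the lowest and highest values were -0.068 and 0.048 for Top2a, -0.0016 and 0.029 for Ccnd2, -0.015 and 0.058 for Mcm4, -0.033 and 0.030 for Mcm5, -0.029 and 0.0081 for Mcm7, -0.031 and 0.074 for Rrm2, -0.021 and 0.093 for Tyms, and -0.10 and 0.013 for Ccna2. For the rest they were -0.067 and 0.019 for Cdk1, -0.12 and 0.016 for Foxm1, -0.033 and 0.047 for Aurka, -0.076 and 0.15 for Bub1, -0.16 and 0.052 for Bub1b, -0.085 and 0.050 for Cenpa, -0.066 and 0.066 for Kif11, and -0.14 and 0.024 for Kif23. Scaling by total counts alone gave 0.0039 for Top2a and 0.0090 for Mcm5. CPM of the plain total moved no level by over 0.864%. The widest intervals were those of Ccnb2, Bub1 and Bub1b.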
